A study of Mus musculus with 14 samples.

Results

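Haematopoietic cytokine receptors were followed while blood cells arose in the mouse embryonic aorta, from endothelium to the intra-aortic haematopoietic clusters (IAHCs). The 9 genes were taken by name: the beta subunits Csf2rb and Csf2rb2, the ligand-binding subunits Il3ra and Csf2ra, the single-chain receptors Csf3r, Flt3 and Epor, and Il6st and Il7r. The rule uses no measured value, though it was set with earlier results of these data known. All 9 were listed among the 19313 genes of the E10 single-cell table, the 19415 genes of the E11 table and the 19400 genes of the cluster table. Transcripts had been counted by CEL-Seq, a single-cell method that reads the 3′ end of each mRNA and counts molecules by unique molecular identifiers (UMIs).

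The 14 samples came from aorta-gonad-mesonephros (AGM) regions or yolk sacs (YS) at E10 (28 to 32 somite pairs) and E11 (over 40 somite pairs). Embryos of the ICR strain gave 3 Cdh5+ Gfi1b- gates: non-haemogenic endothelial cells (non-HE), which were Gfi1- and c-kit-, haemogenic endothelial cells (HE), which were Gfi1+ and c-kit-, and cells in endothelial-to-haematopoietic transition (EHT), which were Gfi1+ and c-kit+. These embryos carried a tomato allele of Gfi1 and a GFP allele of Gfi1b (genotype labelled Gfi+/tomato/ Gfi1b+/GFP), each beside a wild-type allele. Reporter expression at Gfi1 and Gfi1b, not the protein, thus defined these gates. IAHC cells (c-kit+ CD31+, with a further E11 sample sorted on c-kit alone), E11 pre-HSCs (c-kit+ Cdh5+, split into CD45- type I and CD45+ type II by index sorting) and c-kit+ YS haematopoietic stem and progenitor cells (HSPCs) came from wild-type C57BL/6 embryos. Whole IAHCs (wIAHCs, labelled c-kit+) had been picked from C57BL/6 aortas and noted as ventral or dorsal. Embryos had been pooled for sorting, and strain and reporter genotype went with the gate, so between the ICR and the C57BL/6 populations strain, reporter alleles and cell type cannot be told apart.

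Haematopoietic cytokines act through receptors that lack kinases of their own and carry JAK kinases on their intracellular tails. Ligand binding brings the chains together, the JAKs phosphorylate them, and STAT factors dock, are phosphorylated and move to the nucleus. Csf2rb encodes the beta common chain, which gives signal to the IL-3, GM-CSF and IL-5 receptors when paired with a ligand-specific alpha chain such as IL-3Rα (Il3ra) or GM-CSFRα (Csf2ra). Mice have a further beta chain, encoded by Csf2rb2, that serves IL-3 only. Csf3r (the G-CSF receptor) and Epor (the erythropoietin receptor) work as homodimers, Il6st encodes gp130, the signalling chain shared by receptors of the IL-6 family, and Il7r encodes the alpha chain of the IL-7 receptor of lymphoid progenitors. Flt3 is a receptor tyrosine kinase of early lymphoid and myeloid progenitors, with a kinase domain of its own.

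In the GRCm38 annotation (GENCODE vM21), Csf2rb lies at chr15:78325752-78353847 on the plus strand and Csf2rb2 at chr15:78282507-78305721 on the minus strand, 20030 bases apart. Il3ra lies at chr14:14346275-14356011 (+), Csf2ra at chr19:61223957-61228429 (-) and Csf3r at chr4:126024550-126044440 (+). Flt3 lies at chr5:147330741-147400489 (-), Il6st at chr13:112464070-112510086 (+), Il7r at chr15:9505788-9530176 (-) and Epor at chr9:21958897-21963506 (-). Csf2rb and Csf2rb2 are paralogs, with 88.5% identity between their longest annotated transcripts. Over the last 500 bases, where CEL-Seq reads fall, identity was 79.9% and 0 of 451 stretches of 50 bases were shared, but the whole transcripts shared 18.4% of such stretches, so how reads were split between the paralogs is uncertain.

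Stretches of 120 bases before the RefSeq start (which need not be the GENCODE start) are shown for 3 members that differ in the hexamers they hold: Epor and Csf2rb2, the members with GATAAG, and Csf2ra, with GAGGAA and GGGCGG. They are RefSeq sequences of build GRCm38.p6, written 5′ to 3′ along the gene, at chr9:21963577-21963696 (-), chr15:78305722-78305841 (-) and chr19:61228419-61228538 (-). Capitals mark, on either strand, the GATA-type hexamer GATAAG, the ETS-type hexamer GAGGAA and the SP-type hexamer GGGCGG.
Epor: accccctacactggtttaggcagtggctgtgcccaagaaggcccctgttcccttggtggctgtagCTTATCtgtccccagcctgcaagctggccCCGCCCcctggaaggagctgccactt
Csf2rb2: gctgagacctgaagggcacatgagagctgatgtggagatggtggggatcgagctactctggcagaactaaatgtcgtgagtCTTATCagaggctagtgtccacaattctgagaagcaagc
Csf2ra: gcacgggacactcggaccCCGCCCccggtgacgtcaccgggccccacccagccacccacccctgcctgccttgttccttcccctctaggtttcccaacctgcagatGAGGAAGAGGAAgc

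Of the 9 members, 8 had a RefSeq window of 300 bases (250 before to 50 after the start). GATAAG, read on both strands, was found in the windows of Csf2rb2 and Epor, beginning 39 and 55 bases before the start, and in 7.44% of all 32851 windows. GAGGAA stood in those of Csf2rb2, Csf2ra and Csf3r and in 28.3% of all windows, and the RUNX-type hexamer TGTGGT in those of Il7r and Epor and in 16.8% of all. GGGCGG stood in the windows of Il3ra, Csf2ra, Il6st and Epor and in 35.7% of all. None of the 4 hexamers overlaps another in letters, and a match is a description of the sequence only.

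At E10 the single-cell table held 43 non-HE, 98 HE, 191 EHT, 73 IAHC and 141 YS cells, each down-sampled to 3000 transcripts. At E11 it held 30 non-HE, 46 HE, 46 EHT, 62 type I pre-HSC, 55 type II pre-HSC, 201 c-kit+CD31+ IAHC, 89 c-kit+ IAHC and 46 YS cells, each at 5000 transcripts. No 2 cells shared identical values. Each population came from 1 sample (the pre-HSC types from 1 together), so cells were not used as replicates, no test was made between populations, and intervals are exact 95% intervals that cover counting error only. The columns of E10 non-HE cells are named for early E11 while the labels say E10, and the labels were followed. Cells that share a column-name prefix are called a sorted set here, and what a prefix stands for is not given. Some prefixes hold finer ages than the labels. E10 HE columns read E10.5, and E10 EHT columns late E10 (sets of 40 and 87 cells) or E10.5 (64 cells). E11 non-HE columns read late E11 (19 cells) or E11.5 (11 cells). E11 HE and EHT columns read late E11. The endothelial list (Cdh5, Pecam1, Vwf, Kdr, Tek, Gja5) gave 842 transcripts per 100000 in E10 non-HE, 616 in E10 HE, 174 in E10 EHT, 112 in E10 IAHC and 6.62 in E10 YS cells. The haematopoietic list (6 listed genes, among them Ptprc and Runx1) gave 3.10, 17.7, 121, 197 and 199 in the same order. In E11 c-kit+ IAHC cells the mesenchymal list was at 21.6 per 100000, against 11.9 in c-kit+CD31+ cells. Over both stages 122 IAHC cells did not meet a purification rule. It asked for more than 1 Gpr56 transcript and at most 2 transcripts of each of 11 genes of other cells. The paper describes its IAHC cells as already purified in silico by Gpr56, with the same number, 73, at E10. Cells that failed the rule, on down-sampled counts, are thus not shown to be other cell types.

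Transcripts of all 9 receptors were detected, and all were scarce. Over the 546 E10 and 575 E11 cells, Csf3r gave 159 transcripts in 133 cells, Csf2rb 128 in 102, Flt3 84 in 64, Il6st 84 in 78 and Csf2ra 77 in 71. Il3ra gave 57 transcripts in 56 cells, Epor 55 in 49, Csf2rb2 13 in 13 and Il7r 9 in 6. No cell held more than 5 transcripts of any member. Between 24.7% (Il7r) and 66.1% (Csf3r) of detected genes had fewer transcripts than a member. Because 1 tag is made per mRNA, levels of different genes are compared as transcripts per 100000 without a correction for length.

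**Figure D1:**
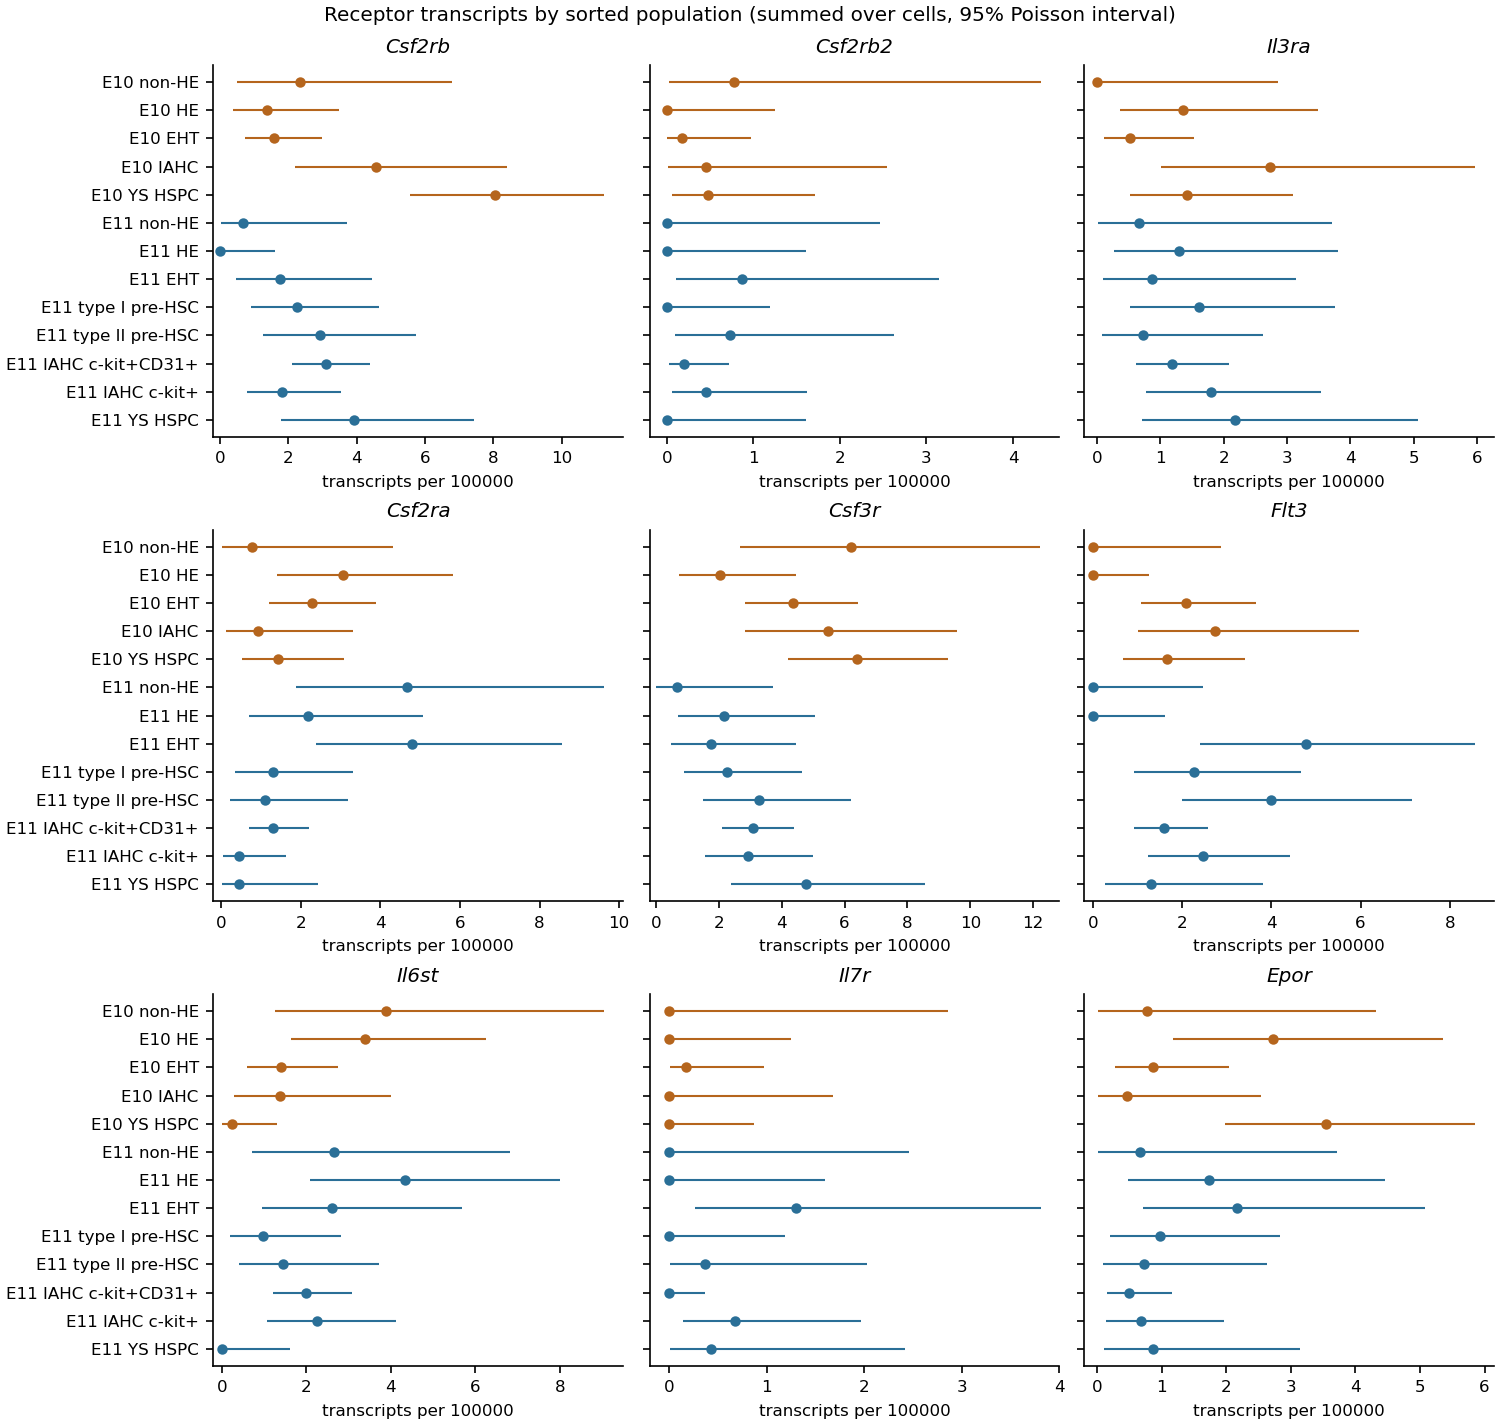
Transcripts per 100000 of each of the 9 receptors (x axes, separate scales) in the 13 sorted populations (y axes), as points with exact Poisson 95% intervals from transcripts summed over cells; E10 is in orange and E11 in blue. Csf2rb is highest in E10 YS HSPCs at 8.04, Flt3 is at 0 in all non-HE and HE populations, and Il6st is at 0.236 and 0 in the YS populations.

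Csf2rb, the shared signalling chain, was highest in YS HSPCs and next in c-kit+CD31+ IAHC cells at both stages. At E10 it was found 34 times in the 141 YS HSPCs, 10 times in the 73 IAHC cells, 9 times in the 191 EHT cells, 4 times in the 98 HE cells and 3 times in the 43 non-HE cells. These sums are 8.04 (interval 5.57 to 11.2), 4.57 (2.19 to 8.40), 1.6 (0.718 to 2.98), 1.36 (0.371 to 3.48) and 2.33 (0.480 to 6.80) transcripts per 100000. The YS interval lay above those of EHT and HE cells, while neighbours in the order overlapped. The same level, 0.231 and 0.250 per cell, was seen in each of the sorted sets of E10 YS cells.

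At E11, Csf2rb stood at 3.91 per 100000 in YS HSPCs, 3.08 in c-kit+CD31+ IAHC cells, 2.91 among type II and 2.26 among type I pre-HSCs, 1.80 in c-kit+ IAHC cells, 1.74 in EHT cells and 0.667 in non-HE cells. No transcript was counted in the 46 HE cells, and a limit of 3 counts puts the share of cells with a UMI at this depth at up to 6.52%, which is no limit on cells that hold the mRNA. The intervals of YS HSPCs (1.79 to 7.43) and c-kit+CD31+ IAHC cells (2.10 to 4.38) lay above that of HE cells (0 to 1.6), and no neighbouring populations were apart. The 9 transcripts of E11 YS HSPCs came from 4 cells.

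Csf2rb2, the IL-3-specific beta chain, gave no more than 2 transcripts in any population, in cells with 1 transcript each. Its 5 transcripts at E10 were 2 in YS HSPCs and 1 each in IAHC, EHT and non-HE cells. The 8 at E11 were 2 each in EHT cells, type II pre-HSCs, c-kit+CD31+ IAHC cells and c-kit+ IAHC cells. At this depth no difference between populations was detectable.

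Il3ra, the alpha chain for IL-3, was found in single copies except in 1 cell. At E10 it reached 2.74 per 100000 in IAHC cells (6 transcripts), 1.4 in YS HSPCs (6), 1.36 in HE cells (4), 0.524 in EHT cells (3) and 0 in non-HE cells. At E11 the range was 0.667 in non-HE cells (1 transcript) to 2.17 in YS HSPCs (5), with 1.80 in c-kit+ and 1.19 in c-kit+CD31+ IAHC cells (8 and 12 transcripts), 1.61 in type I and 0.727 in type II pre-HSCs, 1.30 in HE and 0.870 in EHT cells. All intervals overlapped within each stage.

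Csf2ra, the alpha chain for GM-CSF, had another order, with E11 EHT cells above E11 IAHC cells. At E10 it stood at 3.06 per 100000 in HE cells (9 transcripts), 2.27 in EHT (13), 1.4 in YS (6), 0.913 in IAHC (2) and 0.775 in non-HE cells (1), with all intervals overlapping. At E11 it stood at 4.78 in EHT cells (11 transcripts), 4.67 in non-HE (7), 2.17 in HE (5), 1.3 in type I pre-HSCs (4), 1.3 in c-kit+CD31+ IAHC cells (13), 1.09 in type II pre-HSCs (3), 0.449 in c-kit+ IAHC cells (2) and 0.435 in YS HSPCs (1). The E11 EHT interval (2.39 to 8.56) lay above those of both IAHC samples. All 7 transcripts of E11 non-HE cells came from 1 of the sorted sets, of 19 cells named late E11. In E11 EHT cells the macrophage list (9 genes) was at 73.9 per 100000, with C1qa, Cx3cr1 and Mrc1 at 0, against 0 to 17.8 in the other populations. The 1 E11 EHT cell with at least 4 of 7 macrophage markers held 1 of the 11 Csf2ra and 1 of the 2 Csf2rb2 transcripts, and 10 Csf2ra transcripts lay outside it.

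Transcripts of beta and alpha chains were also counted cell by cell. Among the 405 E10 EHT, IAHC and YS cells, 39 held a beta chain transcript, 34 an alpha chain transcript and 1 both. Among the 499 E11 EHT, pre-HSC, IAHC and YS cells the numbers were 64, 60 and 13. Csf2rb was with Il3ra in 9 cells and with Csf2ra in 4, and a cell could count under both. Of the 13 E11 cells, 6 were among the 290 IAHC cells and 3 among the 46 YS HSPCs. With so few transcripts per cell, a cell without a transcript may still hold the mRNA, so these numbers do not count complete receptors, and whether the chains met more or less often than their own frequencies would give was not tested.

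Csf3r, the G-CSF receptor and the most abundant member, was spread over most populations. At E10 it stood at 6.38 per 100000 in YS HSPCs (27 transcripts), 6.20 in non-HE cells (8), 5.48 in IAHC cells (12), 4.36 in EHT cells (25) and 2.04 in HE cells (6). The sorted sets of YS cells differed, at 0.277 and 0.118 transcripts per cell, and without the first the YS level was 3.95 per 100000. All 8 transcripts of E10 non-HE cells came from 1 of the sorted sets, of 28 cells, 4 of them in 1 cell, and the set of 15 cells had 0. The non-HE cells had 4 transcripts of the haematopoietic list in all. At E11, Csf3r stood at 4.78 in YS HSPCs (11), 3.27 in type II pre-HSCs (9), 2.26 in type I pre-HSCs (7), 3.08 and 2.92 in c-kit+CD31+ and c-kit+ IAHC cells (31 and 13), 2.17 in HE (5), 1.74 in EHT (4) and 0.667 in non-HE cells (1). Intervals overlapped throughout both stages.

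Epor, the receptor through which erythropoietin keeps erythroid progenitors alive, was highest in E10 YS HSPCs. At E10 it gave 15 transcripts in YS HSPCs (3.55 per 100000), 8 in HE cells (2.72), 5 in EHT cells (0.873), 1 in non-HE cells (0.775) and 1 in IAHC cells (0.457). The erythroid list (8 genes) was at 85.8 per 100000 in E10 YS HSPCs, against 1.55 in non-HE, 22.8 in HE, 16.2 in EHT and 58.4 in IAHC cells, and in HE cells Klf1 and Gata1 were at 0. At E11, Epor lay between 0.498 in c-kit+CD31+ IAHC cells (5 transcripts) and 2.17 in EHT cells (5), with 1.74 in HE cells (4) and 0.870 in YS HSPCs (2), where the erythroid list was at 135 per 100000. Intervals overlapped within each stage.

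No Flt3 transcript was counted in an endothelial cell, neither in the 43 non-HE and 98 HE cells at E10 nor in the 30 non-HE and 46 HE cells at E11. By a limit of 3 counts, 0 of 217 cells allows a share of cells with a UMI of up to 1.38% at these depths, which does not limit the share of cells that express the gene. The other 904 cells held 84 transcripts in 64 cells, or 7.08% of cells (interval 5.49 to 8.95). This pooling was chosen after the values had been seen. At E10, Flt3 stood at 2.74 per 100000 in IAHC cells (6 transcripts), 2.09 in EHT cells (12) and 1.65 in YS HSPCs (7). At E11 it stood at 4.78 in EHT cells (11 transcripts in 7 cells), 4.0 in type II pre-HSCs (11), 2.26 in type I pre-HSCs (7), 2.47 in c-kit+ and 1.59 in c-kit+CD31+ IAHC cells (11 and 16) and 1.30 in YS HSPCs (3). Of the 11 transcripts in c-kit+ IAHC cells, 5 came from a sorted set of 7 cells, and without it the level was 1.5, below that of c-kit+CD31+ cells. The intervals of E11 EHT cells (2.39 to 8.56) and type II pre-HSCs (2.0 to 7.16) lay above that of HE cells (0 to 1.6). The pre-HSC values came mostly from 1 of 3 sorted sets of each type, with all 7 type I transcripts in a set of 34 cells and 10 of the 11 type II transcripts in a set of 25, and without these sets Flt3 was at 0 and at 0.667 per 100000.

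Il6st, the gp130 chain, ran the other way, with its highest levels in endothelial cells and its lowest in YS HSPCs. At E10 it stood at 3.88 per 100000 in non-HE cells (5 transcripts), 3.40 in HE (10), 1.4 in EHT (8), 1.4 in IAHC (3) and 0.236 in YS cells (1). At E11 it stood at 4.35 in HE cells (10), 2.67 in non-HE (4), 2.61 in EHT (6), 2.25 in c-kit+ and 1.99 in c-kit+CD31+ IAHC cells (10 and 20), 1.45 in type II and 0.968 in type I pre-HSCs (4 and 3), with 0 in YS HSPCs. At both stages the HE interval lay above the YS interval (1.63 to 6.26 against 0.00599 to 1.32 at E10, and 2.08 to 8.0 against 0 to 1.6 at E11). Pooled over stages, a choice also made after the values had been seen, 28 of 217 non-HE and HE cells (12.9%) and 1 of 187 YS HSPCs (0.535%) held a transcript.

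Il7r gave 9 transcripts in 6 cells, none of them in the 217 non-HE and HE cells. They were 3 in 1 E11 EHT cell, 3 in 2 c-kit+ IAHC cells, and 1 each in an E10 EHT cell, a type II pre-HSC and an E11 YS HSPC. The lymphoid list as a whole was between 0 and 5.45 per 100000, with Ebf1 at 0 in all populations.

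Counted over all 9 genes, the share of cells with at least 1 receptor transcript ran from 23.3% of E10 non-HE cells (interval 11.8 to 38.6) and 29.3% of E10 EHT cells (23 to 36.3) to 47.5% of E10 YS HSPCs (39.1 to 56.1). At E11 it ran from 39.1% of YS HSPCs to 54.5% of type II pre-HSCs (40.6 to 68.0), and with these cells thinned to 3000 transcripts from 23.9% to 40.0%. No cell held more than 3 of the 9 receptors, and cells with more than 1 ran from 7 of 191 (E10 EHT) to 9 of 46 (E11 EHT).

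Populations were then set side by side by a rule of size. A receptor was compared where both populations together held at least 20 of its transcripts, and it was called where its mean per cell differed by at least 2-fold; over all genes the same rule gives the background. Few receptors were abundant enough. The steps from non-HE to HE at both stages, from HE to EHT at E11 and between the pre-HSC types had 0 members to compare.

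In the step from HE to EHT at E10, Csf3r was 2.14-fold higher in EHT cells (25 transcripts in 191 cells against 6 in 98; log2 ratio 1.1, interval -0.22 to 2.67) and Csf2ra (13 against 9) was within the fold. Thus 1 of 2 members was called higher and 0 lower, where 10.51% of all genes compared were higher and 9.22% lower. The Csf3r call was lost by share of cells with a transcript (log2 ratio 0.77). It was also lost without the EHT sorted set of 64 cells, named E10.5 (0.74), and, narrowly, without the HE set of 37 cells (2 transcripts). Flt3, below the limit of 20 transcripts, was higher in EHT than HE cells at E10 (12 against 0) and E11 (11 against 0). With HE cells set at 3 transcripts the folds were 2.05 and 3.67, and the exact intervals began at 1.43 and 2.51. In the E11 step, 8.65% of all genes were higher and 13.93% lower in EHT cells.

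From EHT to IAHC cells at E11, with both IAHC samples pooled, Csf2ra was lower (15 transcripts in 290 cells against 11 in 46; log2 ratio -2.21, interval -3.43 to -0.94), and so was Flt3 (27 against 11; log2 ratio -1.36, -2.42 to -0.20). The other 4 compared members, Csf2rb, Il3ra, Csf3r and Il6st, were within the fold, so 2 of 6 were lower and 0 higher, where 14.29% of all genes were lower and 11.71% higher. With E11 cells thinned to 3000 transcripts Csf2ra (9 against 6) fell below the limit of 20 and 1 was lower, and with purified IAHC cells Csf3r was higher (33 in 187 cells against 4 in 46; log2 ratio 1.02). Strain differs across this step. At E10 the 1 member compared, Csf3r, was within the fold (12 transcripts in IAHC against 25 in EHT cells, log2 ratio 0.33, -0.80 to 1.38). There 5.46% of all genes were higher and 15.8% lower in IAHC cells. Csf2rb had 10 transcripts in 73 E10 IAHC cells against 9 in 191 E10 EHT cells (log2 ratio 1.54, 0.09 to 3.02) and Il3ra 6 against 3 (log2 ratio 2.39, 0.16 to 5.02), both below the limit of 20 transcripts.

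YS HSPCs and IAHC cells, which share a strain, differed in no member by the rule of size. At E10 the 2 members compared were Csf2rb (34 transcripts in 141 YS cells against 10 in 73 IAHC cells; log2 ratio 0.82, interval -0.23 to 2.00) and Csf3r (27 against 12; 0.22, -0.81 to 1.34), where 9.19% of all genes were higher and 9.74% lower in YS HSPCs. Epor, below the limit of 20 transcripts, had 15 transcripts in YS HSPCs and 1 in IAHC cells, a ratio of 7.77 with a wide interval (log2 0.26 to 8.35). At E11, 0 of 5 members were called, where 3.8% of all genes were higher and 17.36% lower in YS HSPCs. Il6st was not seen in the 46 E11 YS HSPCs against 30 transcripts in 290 IAHC cells, at least 1.59-fold lower with YS HSPCs set at 3 transcripts.

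Between the stages, E11 cells were thinned to 3000 transcripts. Csf3r was lower in E11 than E10 EHT cells (0 transcripts in 46 thinned cells against 25 in 191), where 18.07% of all genes were lower. With E11 set at 3 transcripts it was 2.01-fold lower, and the exact interval began at 1.51-fold. The 46 cells held 4 Csf3r transcripts before thinning, so this call rests on few counts. With these 4, at full depth and per 100000, the log2 ratio was -1.33, past the fold. The call was lost by share of cells (log2 ratio -0.68) and without the E10 EHT sorted set of 64 cells, named E10.5 (-0.65). It also fell short of the fold without the 1 macrophage-marker cell (-0.97). That cell held 0 Csf3r transcripts, so this loss came only from setting 3 transcripts over 45 instead of 46 cells. Nothing about macrophage cells is read from it. Csf2rb was lower at E11 in YS HSPCs (5 in 46 against 34 in 141; log2 ratio -1.15, interval -2.86 to 0.21), where 21.05% of all genes were lower, and stayed past the fold at full depth, per 100000 (-1.04). In IAHC cells it passed the rule narrowly (19 in 290 thinned cells against 10 in 73; log2 ratio -1.06, -2.24 to 0.20), where 8.28% of all genes were lower. Both intervals include 0. The E10 IAHC cells were c-kit+CD31+ while the E11 cells pool that sort with the c-kit+ sample, and with c-kit+CD31+ cells of E11 alone the call was lost (-0.78 thinned, -0.57 at full depth). It was also lost at full depth with both samples (-0.76), with purified IAHC cells (-0.70), by share of cells (-0.99) and without any 1 of 3 E11 sorted sets of 15, 26 and 49 cells (-0.99, -0.93 and -0.96), so no difference between the stages in IAHC cells is read from it.

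Cells that held a receptor transcript were set beside cells of the same population that did not, for 10 lineage genes in 10 pairs of receptor and population. Of these 100 comparisons, 21 had intervals that did not overlap. All cells of a stage share 1 depth, and no test was made. Each population is 1 sample except the E11 IAHC cells, which pool the c-kit+CD31+ and the c-kit+ sample and are given within each as well, an addition made after the pooled values had been seen.

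In E10 YS HSPCs, the 13 cells with Epor and the 128 without differed in lineage genes. Embryonic beta globin Hbb-bh1 was at 3.38 transcripts per cell with Epor (interval 2.46 to 4.54) and 0.477 without (0.365 to 0.612). The myeloid peroxidase gene Mpo was at 0.385 against 1.96, the haematopoietic GTPase gene Rac2 at 0.846 against 2.23, and the progenitor marker Cd34 at 0.0769 against 1.30. Klf1, an erythroid transcription factor, was at 0.692 against 0.352, and its intervals overlapped. Cells with Csf2rb (22 against 119) had more Mpo (3.27 against 1.55) and less Hbb-bh1 (0.273 against 0.832). Cells with Csf3r (22 against 119) had more Cd34 (2.27 against 0.983) and less Klf1 (0.0455 against 0.445) and Hbb-bh1 (0.227 against 0.840). Any Hbb-bh1 was found in 8 of 13 cells with Epor and 26 of 128 without. For Csf2rb it was 3 of 22 against 31 of 119, and for Csf3r 1 of 22 against 33 of 119. Any Mpo was found in 3 of 13 cells with Epor and 74 of 128 without. Thus, by mean per cell within 1 sorted YS population, the Epor cells were globin-rich and Mpo-poor, and the Csf2rb and Csf3r cells were globin-poor. The Csf2rb globin difference rests on few cells.

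**Figure D2:**
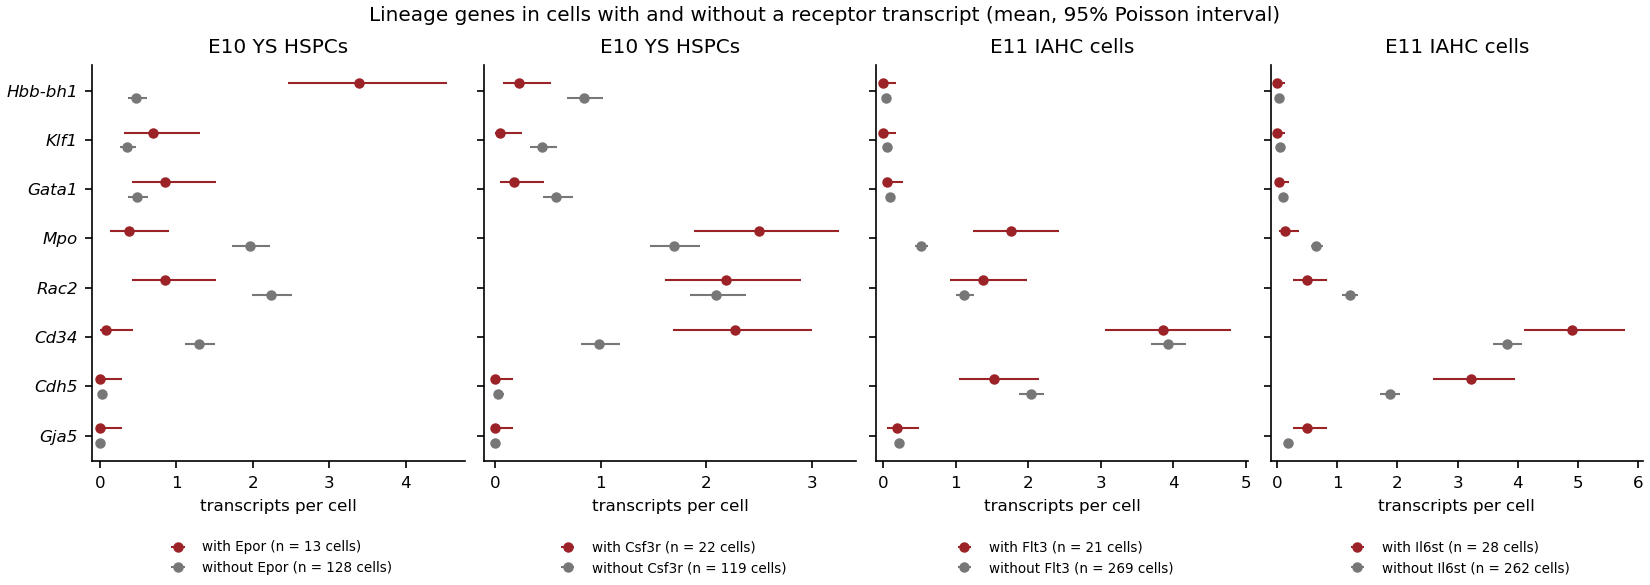
Mean transcripts per cell (x axes) of 8 lineage genes (y axis) in cells with (red) and without (grey) a transcript of Epor or Csf3r in E10 YS HSPCs and of Flt3 or Il6st in E11 IAHC cells (both samples pooled); bars are exact Poisson 95% intervals. Hbb-bh1 is at 3.38 with and 0.477 without Epor, Mpo at 1.8 with and 0.517 without Flt3, and Cdh5 at 3.21 with and 1.87 without Il6st.

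In the pooled E11 IAHC cells, cells with Flt3 and cells with Il6st differed from the rest in different ways. The 21 cells with Flt3 had 1.8 Mpo transcripts per cell (interval 1.2 to 2.43) against 0.517 (0.434 to 0.610) in the 269 without. The 28 cells with Il6st had 0.143 Mpo against 0.656 in the 262 without, less Rac2 (0.5 against 1.2), more VE-cadherin (Cdh5, 3.21 against 1.87), more of the arterial connexin Gja5 (0.5 against 0.187) and more Cd34 (4.89 against 3.82). At least 1 Mpo transcript was found in 10 of the 21 cells with Flt3 and in 91 of the 269 without. The 40 cells with Csf3r had 1.1 Mpo against 0.528 in the 250 without, while the cells with any Mpo were 15 of 40 and 86 of 250, nearly the same share. The 35 with Csf2rb had 5.29 Cd34 against 3.74 in the 255 without.

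Within the samples, the higher Mpo beside Flt3 and Csf3r was found in c-kit+ cells. There Mpo was at 3.86 per cell in the 7 cells with Flt3 against 0.585 in the 82 without, and at 2.33 in the 12 cells with Csf3r against 0.610 in the 77 without. In c-kit+CD31+ cells the intervals overlapped, with 0.714 (14 cells) against 0.487 for Flt3 and 0.571 (28 cells) against 0.491 for Csf3r. The lower Mpo beside Il6st was seen in both samples with intervals apart (0.111 against 0.541 in c-kit+CD31+ and 0.2 against 0.924 in c-kit+ cells, 2 transcripts in the cells with Il6st in each). Cdh5 and Gja5 were higher beside Il6st with intervals apart in c-kit+CD31+ cells (4.06 against 2.07, and 0.722 against 0.240), while in c-kit+ cells the intervals overlapped (1.7 against 1.4, and 0.1 against 0.0633). For Rac2 beside Il6st and Cd34 beside Csf2rb the intervals were apart in c-kit+ cells only, and for Cd34 beside Il6st in neither sample.

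In E10 EHT cells, the 20 cells with Csf3r had less Cdh5 (1.1 against 2.22 per cell) and more Kit (2.15 against 1.19) than the 171 without. The 7 cells with Flt3 had more Rac2 than the 184 without (1.43 against 0.277). In E11 YS HSPCs the 8 cells with Csf3r had 4.5 Mpo against 1.3 in the 38 without.

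Genes that act downstream of and beside the receptors were described as whole lists. The 4 JAK kinases together were at 14.7 (E10 YS) to 28.6 (E10 HE) transcripts per 100000 and the 7 STAT factors at 24.3 (E11 YS) to 42.9 (E11 type II pre-HSCs). Of the 12 ligands, 10 were listed, and Csf2, Csf3, Il6, Il7 and Lif, which encode ligands of the members or of gp130, were at 0 in all populations. All 10 transcripts of the ligand gene Osm were in E11 EHT cells.

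Across the E10 step from HE to EHT, by the same rule of size, 0 of 3 JAK genes were higher and 1 lower (Jak3, 8 against 14 transcripts, 3.41-fold), and 0 of 5 STAT genes were called. Of 9 inhibitors, 2 were higher: Ptpn6, the phosphatase SHP-1 that damps cytokine receptors, at 141 against 4 transcripts (18.1-fold) and Socs5 at 30 against 5 (3.08-fold). Among the other receptors, Kit, part of the gate, was higher (246 against 26), and 3 of 8 were lower. These included Il2rg, the common gamma chain (42 against 62, 2.88-fold), and Lifr, which pairs with gp130 (12 against 26, 4.22-fold). Ghr was lower too (12 against 13, 2.11-fold), with a log2 interval of -2.34 to 0.17. Of 6 target genes, Myc was higher (37 against 8). The list medians were -0.13 (JAK), 0.56 (STAT), -0.25 (inhibitors), 0.28 (other receptors) and 0.23 (targets) on the log2 scale, beside 0.07 for all genes.

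In the same step at E11, Ptpn6 (27 against 4 transcripts in 46 cells each, 6.75-fold) and Kit (76 against 2) were higher in EHT cells. Lifr (4 against 22, 5.5-fold), Ghr (5 against 17, 3.40-fold) and the STAT inhibitor Pias3 (7 against 18, 2.57-fold) were lower. Il2rg moved the same way as at E10 but within the fold (24 against 43, 1.79-fold). In all, 1 JAK, 3 STAT, 5 inhibitor, 5 other receptor and 4 target genes had enough transcripts to be compared.

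Between YS HSPCs and IAHC cells, 2 of 7 target genes compared were higher in YS HSPCs and 0 lower at E10, and 3 of 8 higher and 1 lower at E11. The list medians were 0.10 and -0.09 on the log2 scale, beside 0.05 and -0.15 for all genes. Summed, the 11 target genes were at 89.1 per 100000 in YS and 89.0 in IAHC cells at E10, and at 71.3 and 94.5 at E11. At E10, Pim1 was at 39 transcripts in 141 cells against 7 in 73 (2.88-fold), Myc at 31 against 4 (4.01-fold), Stat5a at 43 against 9 (2.47-fold) and the ligand gene Il11 at 29 against 3 (5.0-fold). Lower were Stat4 (9 against 16, 3.43-fold), Il11ra1, the IL-11 receptor that uses gp130 (20 against 39, 3.77-fold), and Kit (51 against 69, 2.61-fold). At E11, Pim1 (19 in 46 cells against 35 in 290, 3.42-fold), Pim2 (8 against 15, 3.36-fold), Myc (14 against 40, 2.21-fold) and Il2rg (18 against 41, 2.8-fold) were higher. Il11ra1 (14 against 219, 2.48-fold), Crlf2 (6 against 113, 2.99-fold) and Ccnd2 (38 against 640, 2.67-fold) were lower. By the same rule Tyk2, Socs5, Socs6, Socs7 and Pias1 were lower, each with 1 to 4 transcripts in YS HSPCs. Their intervals lay on both sides of no difference.

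The genes whose levels over the 13 populations were most like each receptor were found by Pearson's r of log2(transcripts per 5000 + 0.1) among 8703 genes with at least 50 transcripts. For Csf2rb they were Stip1 (r = 0.95), Pin4 (0.94) and Psmd3 (0.94), for Csf3r B230118H07Rik (0.93), Rpusd1 (0.92) and Arl6ip4 (0.92), and for Flt3 Gpr171 (0.93), Nfam1 (0.91) and F5 (0.91). Il6st was most like Fam129b (0.97), Chd3 (0.96) and Arhgap28 (0.95), Csf2ra most like Cenpj (0.92), Zfp275 (0.91) and Hoxb4 (0.90), Epor most like Zdhhc5 (0.87), Letmd1 (0.83) and Vps26a (0.80), and Il3ra most like Ei24, Psmd11 and Lars2 (0.82 each). Between members, r was 0.73 for Csf2rb and Csf3r and -0.76 for Csf2rb and Il6st. These are descriptions over 13 points that share libraries and, within a stage, depth.

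In wIAHCs, which were sequenced as small bulk libraries, replicates allowed a test. Of 109 libraries, 57 with at least 5000 transcripts were used: 7 of 18 E10 dorsal, 21 of 36 E10 ventral, 12 of 21 E11 dorsal and 17 of 34 E11 ventral. A wIAHC counted as a replicate. Those of the same embryo cannot be recognised, so p-values measure the spread between wIAHCs. In such libraries fewer cells of a type and less RNA per cell cannot be told apart.

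Receptor UMIs were found in 7 of 7 E10 dorsal, 19 of 21 E10 ventral, 9 of 12 E11 dorsal and 13 of 17 E11 ventral libraries. Summed over all members they made 23.1 (interval 16.7 to 31.3), 16.4 (13.3 to 19.96), 18.1 (11.3 to 27.4) and 15.4 (11.4 to 20.5) UMIs per 100000 in the same order. These intervals overlapped throughout.

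Csf3r was the most abundant receptor in wIAHCs too, with 83 UMIs in all. It stood at 7.71 per 100000 in E10 dorsal libraries (14 UMIs in 4 of 7), 7.35 in E10 ventral (44 in 16 of 21), 4.9 in E11 dorsal (6 in 3 of 12) and 6.11 in E11 ventral libraries (19 in 8 of 17). Per library it ran from 0 to 3.32 UMIs per 10000 in E10 dorsal (median 0.612), 0 to 1.7 in E10 ventral (median 0.720), 0 to 2.95 in E11 dorsal (median 0) and 0 to 2.42 in E11 ventral libraries (median 0). The groups overlapped throughout.

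Csf2rb followed with 35 UMIs: 4.4 per 100000 in E10 dorsal (in 4 of 7 libraries), 2.34 in E10 ventral (6 of 21), 5.75 in E11 dorsal (4 of 12, 4 of 7 UMIs in 1 library) and 1.93 in E11 ventral libraries (3 of 17). Csf2ra had 32 UMIs, at 3.85, 2.51, 3.29 and 1.93 per 100000 in the same order. Flt3 had 13 UMIs (2.75, 0.836, 0 and 0.965), Il6st 15 (0.550, 1.84, 0 and 0.965), Il3ra 12 (2.75, 0.669, 0.822 and 0.644), Csf2rb2 6 and Il7r 3. For all of these, libraries of every group lay at 0 and the groups overlapped.

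**Figure D3:**
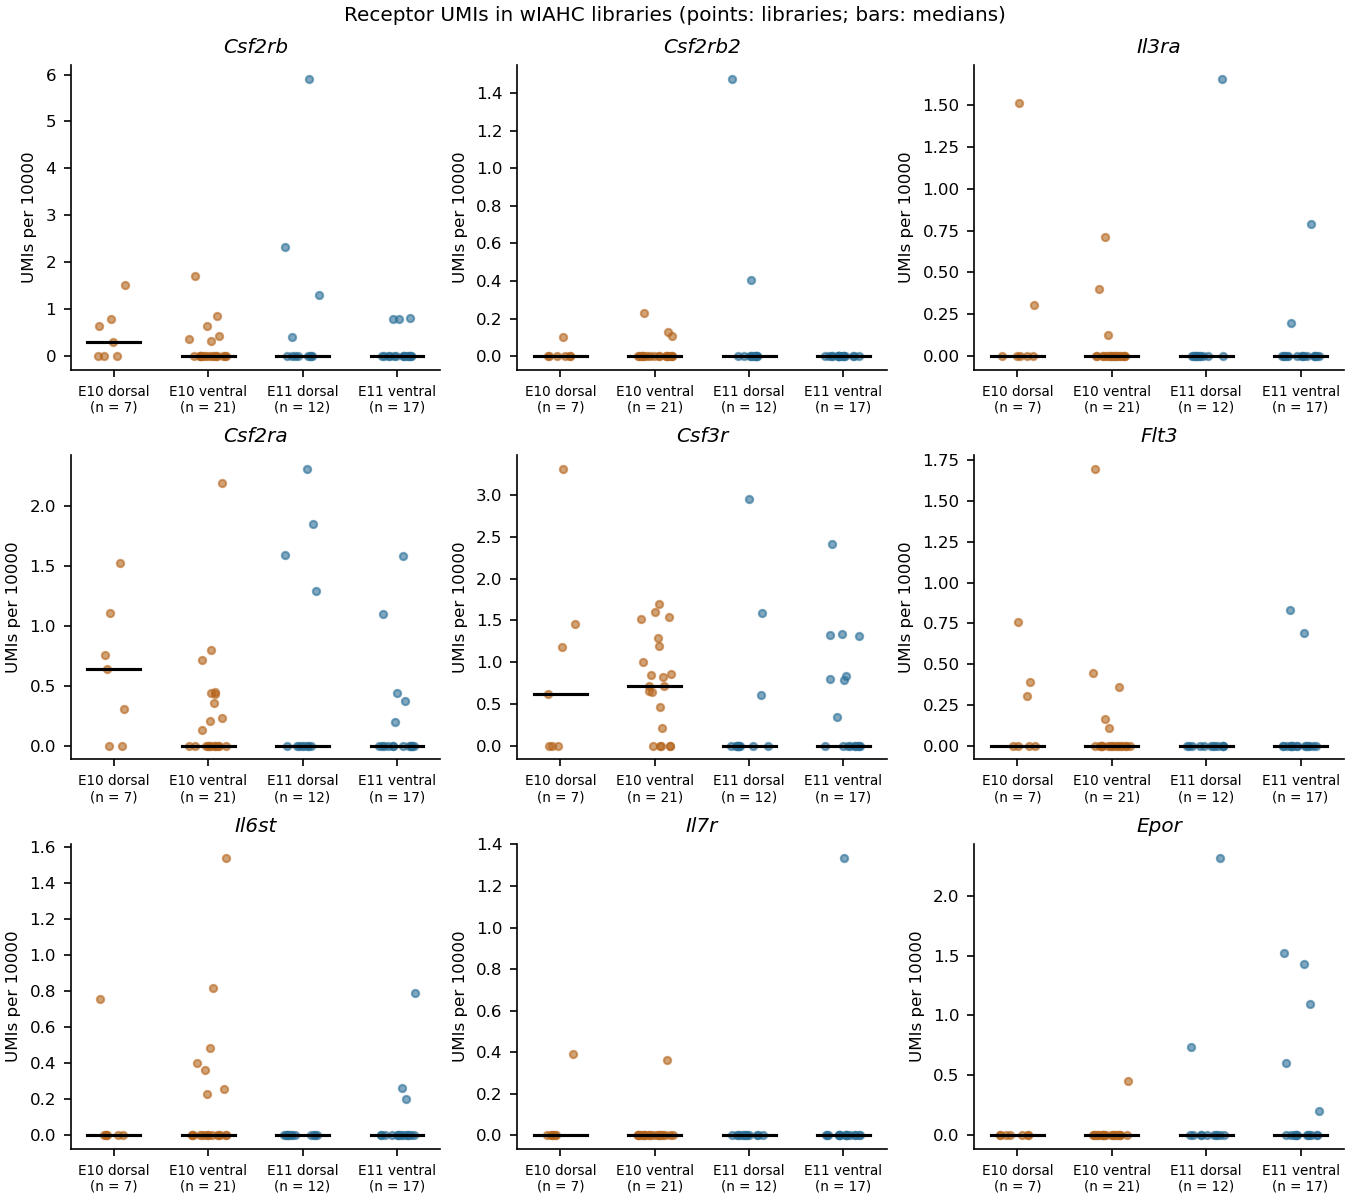
UMIs per 10000 (y axes, separate scales) of the 9 receptors in the 57 wIAHC libraries used, by stage and side (x axes; 7 E10 dorsal, 21 E10 ventral, 12 E11 dorsal, 17 E11 ventral); points are libraries and bars medians. Most libraries lie at 0 for most members, medians above 0 occur for Csf2rb, Csf2ra and Csf3r only, and the groups overlap for every member.

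Of 260 genes that passed edgeR's filter on low counts, 0 were members, so the test as planned says nothing of them. In that fit (edgeR's quasi-likelihood test, Benjamini-Hochberg adjusted p under 0.05), 81 genes (31.15%) differed between E11 and E10 in ventral wIAHCs and 24 (9.23%) in dorsal wIAHCs. Between ventral and dorsal wIAHCs 0 (0%) differed at either stage, with 23 at E11 and 20 at E10 at an unadjusted p under 0.05, and 0 (0%) in the interaction, with 26 unadjusted, and DESeq2 also gave 0 for each of the 3. Of the 4 JAK, 7 STAT, 15 inhibitor, 12 other receptor, 12 ligand and 11 target genes, 1 target gene (Ccnd2) passed the filter and it was not called in any of the 5 contrasts.

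When every gene with at least 1 transcript was kept (13621 genes), 309 genes (2.27%) differed between stages in ventral wIAHCs, and Epor was the 1 member among them. Epor was seen in 0 of 7 E10 dorsal, 1 of 21 E10 ventral, 2 of 12 E11 dorsal and 5 of 17 E11 ventral libraries, with 0, 1, 2 and 8 UMIs. In E11 ventral libraries it ran from 0 to 1.5 UMIs per 10000 and in E10 ventral libraries from 0 to 0.449, with both medians at 0 and the groups overlapping. The fitted difference was 2.00 on the log2 scale (SE 0.51; edgeR adjusted p = 0.0445). The other 8 members had log2 differences between -0.86 and 0.25 in ventral wIAHCs, with adjusted p between 0.464 and 1.

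The Epor difference rested on few libraries. Leaving out any 1 of the 5 E11 ventral libraries with Epor raised the adjusted p to between 0.0557 and 0.301, the latter without the library that held 4 of the 8 UMIs, where the difference was 1.34. Haemoglobin transcripts moved with it. They are given as a share of collision-corrected transcripts, not of UMIs. They made 0.207 to 23.6% in those 5 libraries (median 0.517%) and 0.00730 to 0.725% in the 12 without Epor (median 0.258%). Of the Klf1 UMIs, 22 fell in the former against 1 in the latter. Of those 22, 20 were in the library with 4 Epor UMIs (13.2% haemoglobin) and 2 in the library at 23.6%, with 0 in the other 3. In E10 ventral libraries haemoglobin was at most 0.0518%. Without the libraries over 10% haemoglobin the Epor difference was 1.07 with an adjusted p of 0.456 in edgeR. The column names divide the E11 libraries into sets whose meaning is not given. All 8 UMIs came from 1 set (13 ventral libraries), and the other (4 libraries) had 0. The part of blood cells or of the set in the result was not tested.

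**Figure D4:**
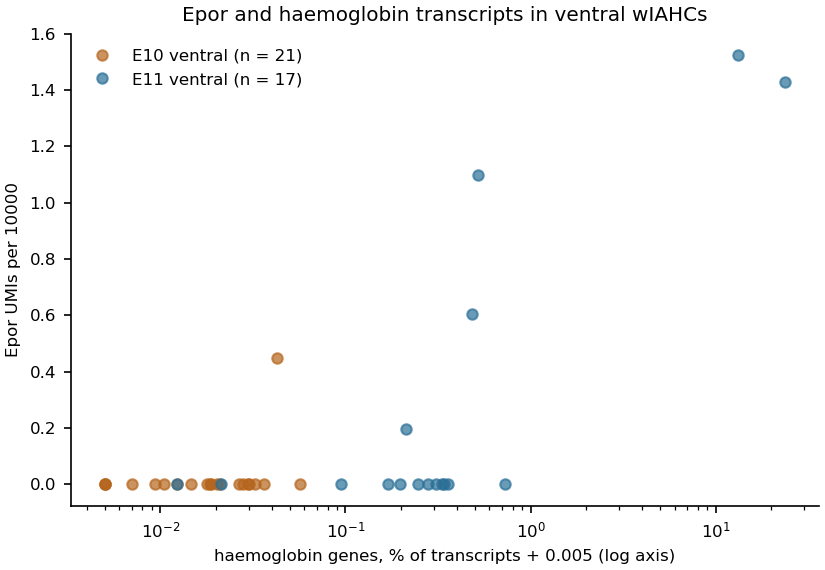
Epor UMIs per 10000 (y axis) against the share of haemoglobin transcripts (x axis, percent plus 0.005, log scale) in the 21 E10 ventral (orange) and 17 E11 ventral (blue) wIAHC libraries, 1 point per library. The 5 E11 libraries with Epor lie at 0.207% haemoglobin or above, and 1 E10 library with Epor lies at 0.0378%.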

How the data were processed

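The receptors and gene lists were chosen with earlier results of these data known. The deposited single-cell values are estimated counts that the authors made from UMIs, down-sampled to 3000 (E10) or 5000 (E11) transcripts per cell and raised by 0.1, which was taken off here. The wIAHC table, as deposited, gives estimated counts after a collision correction for UMIs. That correction was undone for 256 possible UMIs, giving whole numbers (largest deviation 3.13e-13), and 90 spike-in rows were dropped. Per the submitters' processing notes, BWA 0.6.2-r126 and mm10 were used. All value columns were mapped (0 left over), and the side of each wIAHC was read from its column name. No doublet caller was run, since cells had been sorted into wells.

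Sums of transcripts have exact Poisson, shares exact Clopper-Pearson and ratios exact conditional binomial intervals (95%, scipy 1.17.1), and a population at 0 was set at 3 transcripts. The corrected wIAHC values were rounded to whole numbers and tested with edgeR 4.0.16 (TMM, filterByExpr, quasi-likelihood, 4 groups of stage and side), with DESeq2 1.42.0 (poscounts size factors) as an alternative. On simulated ventral wIAHC data of 388 genes, all 193 tested genes changed by 4-fold were recovered, with 2 false calls. The changed genes were drawn from those that pass the filter, with a fixed spread. The simulation thus says nothing of the receptors, which do not pass, or of the fit without a filter. Every receptor was named. Signalling genes were named where they passed the wIAHC test or the 2-fold rule or were abundant, and likeness by the 3 highest r. Alternatives were other normalizations, filters, depth limits, thinning, purification of IAHC cells and leaving out sorted sets or libraries. Some genes of the signalling and marker lists are not reported here.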

Additional observations from a re-analysis of the deposited data

Results flagged for a closer look

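In the 7 E10 dorsal wIAHC libraries, the highest library stood far from the others for 4 receptors. Chance passes the limit in about 1 in 20 groups of continuous values, which does not hold for counts this sparse. For Il3ra it was at 1.51 UMIs per 10000 and the next at 0.306. For Il6st it was at 0.756, for Il7r at 0.393 and for Csf2rb2 at 0.102, with the other 6 libraries at 0. Each of the last 3 values is a single UMI, and 1 UMI in 1 library passes the limit by construction.

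The 52 wIAHC libraries under 5000 transcripts, which the comparisons as reported left out, held 4 UMIs of Csf2rb in 4 libraries and 4 UMIs of Csf3r in 4 libraries. That is 4.09 UMIs per 100000 for each, beside 2.89 for Csf2rb and 6.85 for Csf3r in the 57 libraries used.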

How the results depend on the processing

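The log2 ratios of called receptors kept their direction in all 59 alternatives run but stayed past 2-fold in 45 (5 alternatives between stages, at full depth or with c-kit+CD31+ cells of E11 alone, were chosen after seeing the data). The 14 losses were of Csf2rb between stages in IAHC cells (8 of 15 alternatives) and of Csf3r in E10 EHT against HE cells (3 of 7) and between stages in EHT cells (3 of 6), and 6 of them came from leaving out a sorted set. Counts of receptors past the limit, for which no set was left out, stayed the same in 77 of 84. By share of cells with a transcript instead of transcripts, the count was 0 for EHT above HE cells at E10 (Csf3r lost), and 0 below E10 for E11 EHT (Csf3r) and for E11 IAHC cells (Csf2rb). With IAHC cells purified, 1 receptor (Csf3r) was higher in E11 IAHC than EHT cells and 0 were lower in E11 than E10 IAHC cells (Csf2rb lost). With E11 cells thinned, 1 receptor was lower in IAHC than EHT cells (Csf2ra lost, with too few transcripts). Without cells with macrophage markers 0 were lower in E11 than E10 EHT cells (Csf3r lost). The 1 cell removed held 0 Csf3r transcripts, so that loss came only from setting 3 transcripts over 45 instead of 46 cells. Of 264 alternatives for single levels, 26 moved beyond counting error, most of them where 1 sorted set held all transcripts. The wIAHC fit without a filter called 309 genes between stages in ventral and 107 in dorsal wIAHCs, 12 and 8 between sides at E11 and E10, and 21 in the interaction, and with libraries of at least 10000 transcripts 132 and 3 genes differed between stages. These settings test different numbers of genes, and the cause of each change was not tested. The Epor difference, examined with settings chosen after seeing the data, kept its sign in all 11 and passed in 3: libraries of at least 3000 transcripts (adjusted p = 0.0455), RLE size factors (0.0207) and UMIs without the collision correction (0.0471), all in edgeR. It did not pass with libraries of at least 10000 transcripts (0.122) or in DESeq2, where p was 0.384 and no adjusted value was given. No paired analysis was possible because the labels give the wIAHC libraries no replicate numbers. Those in the column names count libraries within a set named there. With that set as a covariate, 0 genes differed between sides at E11 (edgeR). At 3000 to 5000 transcripts per cell, a count of 0 does not limit the share of cells that hold a receptor's mRNA.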
